A study of Mus musculus with 4 samples.

Results

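The genes of the cytosolic ribosome were compared between differentiated neurosphere cultures from APPswe/PS1dE9 embryos and from wild-type (WT) embryos. A gene was counted when a probe with an mRNA accession carried an Rpl or Rps symbol followed by a digit, or was Rplp0, Rplp1, Rplp2 or Rpsa. The S6 kinases and the pseudogenes were left out. These rules found 87 genes among 19699 genes with such a probe and a symbol, and each gene was represented by its brightest probe. Of the 87, 84 had a probe that passed the detection filter and were measured: 42 of the large subunit, 31 of the small subunit, 3 of the P stalk, 7 paralogs or retrocopies and Rps19bp1. Rpl3l, Rpl10l and Rpl39l, paralogs of Rpl3, Rpl10 and Rpl39, had no probe that passed.

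APPswe/PS1dE9 mice carry transgenes of familial Alzheimer's disease, a mutant amyloid precursor protein and a presenilin 1 without its exon 9 sequence. Both genotypes were C57BL/6 per the labels. Telencephalic precursors were taken at embryonic day 13, kept for 5 days in EGF and FGF2 until they formed neurospheres, and differentiated for 7 days without either factor. The sources used here do not give the promoter of the transgenes. Nor do they say whether the 4 cultures of a genotype came from separate embryos or litters, so the spread between arrays may be technical. Each of 4 two-colour Agilent arrays paired RNA of 1 APPswe/PS1dE9 culture with RNA of 1 WT culture. Replicates 1 and 2 had APPswe/PS1dE9 RNA in Cy3 and WT RNA in Cy5, and replicates 3 and 4 had the dyes exchanged. The fit takes up differences between these dye orientations. A p-value thus reflects the spread between arrays within each orientation, moderated by that of all features. Equal amounts of RNA, 100 ng, were labelled, so each ratio is relative to the other transcripts of the same RNA.

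Ribosomal proteins, together with ribosomal RNA, build the small subunit, which reads the mRNA, and the large subunit, which joins amino acids. Their mRNAs are abundant in most cells, neural precursors and neurons included, and begin with a 5′ terminal oligopyrimidine (TOP) tract, a C followed by a run of C and T. Through this tract the mTOR kinase and the RNA-binding protein LARP1 control how much of the mRNA is translated, so the amount of the mRNA and its translation can part. Arrays measure the amount of mRNA alone.

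Start-site sequences are shown to display runs of C and T at or near the annotated start in genes of differing ratio. RefSeq promoters (GRCm38.p6) were at hand for 67 of the 87 genes. The window ran from 10 bases before to 20 after the annotated start, on the strand of the gene. A tract was a C followed by at least 4 bases that were each C or T, so 5 or more in all. It occurred in 43 of the 67 ribosomal protein genes (64.2%) and in 9671 of 27025 genes of the table (35.8%). Capitals mark the longest tract. The genes shown are Rps6, known for its phosphorylation downstream of mTOR, Rpl35 with a long tract, the paralogs Rps27l and Rpl22l1 with the highest ratios among paralogs, the common reference gene Rpl13a, and Rps19bp1 with the lowest ratio.
Rps6, chr4:86857348-86857377, minus strand: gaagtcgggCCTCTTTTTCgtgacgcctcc
Rpl35, chr2:39005112-39005141, minus strand: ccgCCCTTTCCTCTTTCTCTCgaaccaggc
Rps27l, chr9:66946076-66946105, plus strand: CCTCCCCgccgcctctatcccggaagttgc
Rpl22l1, chr3:28805498-28805527, plus strand: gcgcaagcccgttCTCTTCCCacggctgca
Rpl13a, chr7:45128726-45128755, minus strand: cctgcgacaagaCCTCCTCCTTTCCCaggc
Rps19bp1, chr15:80264287-80264316, minus strand: cggaagtagctcgccgcgtgtgggcggggc
Rps6 and Rpl35 held tracts of 10 and 18 bases across or beside the annotated start, and the Rps19bp1 window held none. The tract of Rps27l began 10 bases before the annotated start and ended before it, so by this annotation it is not in the mRNA. Those of Rpl22l1 and Rpl13a began at bases 4 and 3 of the annotated transcript. Among measured genes with a window, the median fitted log2 ratio was -0.01 both in the 40 with a tract and in the 24 without. A match is a description of these letters, and annotated starts can lie some bases away from those used.

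Per array and channel, 47.5% to 59.6% of 59305 probe spots exceeded background by the scanner software's call (well above background). All 84 ribosomal protein genes were well above background in both channels on all 4 arrays, and no spot was saturated. In brightness of the spot, which is no measure of RNA level between probes, 81 of the 84 lay in the brightest 10% of features. Sex-linked transcripts differed between the cultures of 2 arrays. On replicate 1, Eif2s3y and Ddx3y were above background in the APPswe/PS1dE9 culture and Xist in the WT culture. The reverse held on replicate 3. On replicates 2 and 4, both cultures had Xist above background and neither had Eif2s3y or Ddx3y. Results are therefore also given for replicates 2 and 4 alone, which have 1 array of either dye orientation.

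No ribosomal protein gene passed the test in either direction. Of the 84, 0 were higher in APPswe/PS1dE9 cultures at an adjusted p under 0.05 (limma, Benjamini-Hochberg over 20583 features), where 1705 features (8.28%) were higher, and 0 were lower, where 472 features (2.29%) were lower. With median centring in place of loess, the members stayed at 0 and 0, and the features split into 1310 higher and 1309 lower. Under that centring the median of the members moved to -0.20, against -0.07 over all features, and 83 of the 84 lay below 0. In the fit with loess, 1 member (1.19%), Rps27l, and 5267 features (25.6%) had an unadjusted p under 0.05 (limma). The median fitted log2 ratio of the 84 genes was 0.00, against 0.01 over all features, and their fitted ratios ranged from -0.12 to 0.23. In all, 38 genes lay above 0 and 46 below. The SD of the fitted ratios was 0.06 over ribosomal protein genes and 0.25 over all features. None of the 84 had a fitted log2 ratio of 0.25 or more in size, the smallest size that was called in any feature, where 16.6% of all features did.

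**Figure D1:**
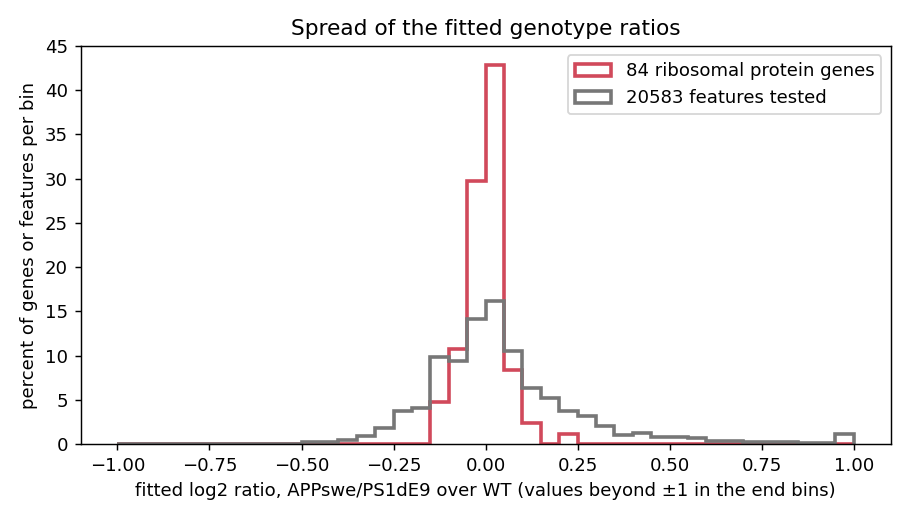
Histogram of the fitted log2 ratio, APPswe/PS1dE9 over WT (x axis), as percent of genes or features per bin (y axis), for the 84 ribosomal protein genes (red) and all 20583 features tested (grey). The ribosomal protein genes lie between -0.12 and 0.23, with an SD of 0.06 against 0.25 over all features.

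A p above the threshold does not show that levels were equal, so each gene's interval was examined. The 95% interval of the ratio lay within 1.25-fold in either direction for 83 of the 84 genes, with Rps27l outside, and for 61.3% of all features. It lay within 1.5-fold for all 84 genes and for 91.2% of all features. These intervals come from a fit with a dye term, which takes up any difference between the 2 dye orientations. Without that term, 77 genes had an interval within 1.25-fold, and Rpl3, Rpl23, Rpl35, Rpl41, Rps14, Rps24 and Rps27l did not, while all 84 stayed within 1.5-fold. On replicates 2 and 4 alone, 13 genes had an interval within 1.25-fold and 82 within 1.5-fold. With median centring in place of loess, 5 genes had an interval within 1.25-fold and all 84 within 1.5-fold. The count within 1.25-fold thus depends on the normalization. The standard error had a median of 0.06 in ribosomal protein genes and 0.07 over all features.

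**Figure D2:**
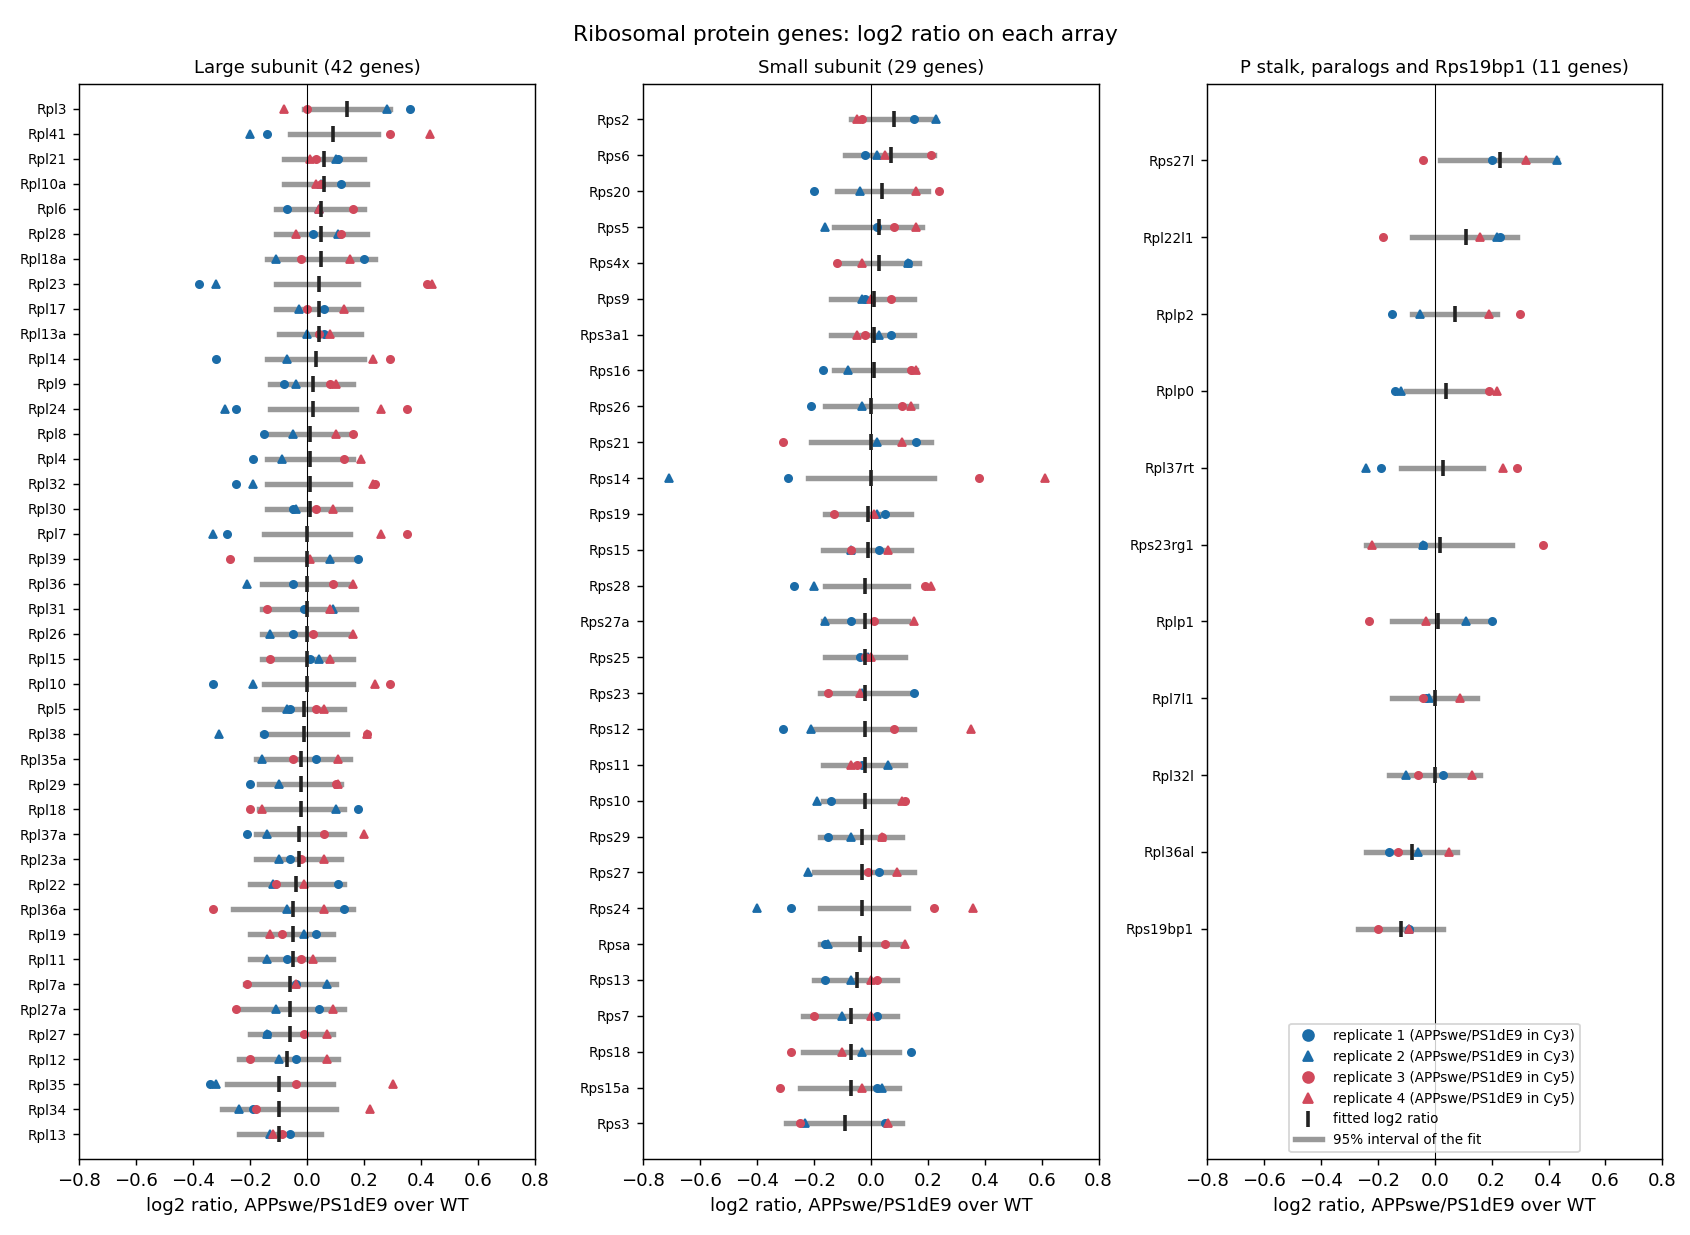
Log2 ratio of APPswe/PS1dE9 over WT (x axis) of 82 of the 84 measured genes (rows, highest fitted ratio at the top of each panel). Points are the 4 arrays, coloured by the dye of the APPswe/PS1dE9 RNA, the black tick is the fitted ratio and the grey bar its 95% interval; the fitted ratios stay between -0.12 and 0.23, while single arrays reach 0.71 in size.

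The small subunit binds the initiator tRNA and the mRNA. Its 31 genes had a median fitted log2 ratio of -0.02, with 11 above 0 and 20 below, and a range of -0.09 to 0.09. Their array medians were -0.02, -0.07, 0.01 and 0.06 on replicates 1 to 4. Rps2, which lines the mRNA entry channel, had log2 ratios of 0.15, 0.23, -0.03 and -0.05 and a fitted 0.08 ± 0.06 (SE, n = 4 arrays). These values were above 0 in both arrays with APPswe/PS1dE9 in Cy3 and below 0 in both with it in Cy5. Rps6, the substrate of the S6 kinases and a common readout of mTOR activity as a protein, had log2 ratios of -0.02, 0.02, 0.21 and 0.05, a fitted 0.07. Replicate 3 was the highest array, and the others were within 0.05 of 0.

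At the low end of the small subunit stood Rps3, Rps15a and Rps7. Rps3, another protein of the mRNA entry channel with a known part in DNA repair, had log2 ratios of 0.05, -0.23, -0.25 and 0.06 and a fitted -0.09. Rps15a had log2 ratios of 0.02, 0.04, -0.32 and -0.03, and Rps7, which can bind the p53 regulator MDM2, of 0.02, -0.10, -0.20 and 0.00, both with a fitted -0.07. In Rps15a and Rps7 replicate 3 was the lowest array, and the arrays lay on both sides of 0 by the chosen probe. Another kept probe of Rps15a was below 0 on all 4 arrays, with -0.08, -0.28, -0.30 and -0.18. Its remaining probe lay on both sides of 0. Rps14, a protein of the small subunit platform whose reduced dosage underlies a human anaemia, varied most between arrays of all 84 genes, with log2 ratios of -0.29, -0.71, 0.38 and 0.61. Its normalised log2 signal, taken per channel after loess and scaling of the average brightness between arrays, was 16.43 ± 0.32 in APPswe/PS1dE9 cultures and 16.43 ± 0.31 in WT cultures (mean ± SD, n = 4). Each pair of arrays pointed the opposite way to the other pair, the genotypes overlapped, and the fitted ratio was 0.00 ± 0.09. Without the dye term in the fit, the standard error of Rps14 was 0.20.

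The large subunit forms peptide bonds and holds the exit tunnel. Its 42 genes had a median fitted log2 ratio of 0.00, with 20 above 0 and 22 below, and a range of -0.10 to 0.14. Their array medians were -0.05, -0.10, 0.02 and 0.09. Rpl3, which reaches towards the peptidyl transferase centre, was the highest, with a fitted 0.14 ± 0.06 (adjusted p = 0.222, limma). Its normalised log2 signal was 14.88, 14.80, 14.65 and 14.60 in APPswe/PS1dE9 cultures, against 14.53, 14.51, 14.65 and 14.68 in WT cultures. The APPswe/PS1dE9 values were above those of WT on replicates 1 and 2, with log2 ratios of 0.36 and 0.28, and not on replicates 3 and 4, with 0.00 and -0.08. Rpl41, a very short peptide at the bridge between the subunits, had log2 ratios of -0.14, -0.20, 0.29 and 0.43, a fitted 0.09 that changed sign with the dyes.

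Among the lowest genes of the large subunit, Rpl13 was the most even by its chosen probe. Its log2 ratios were -0.06, -0.13, -0.09 and -0.12, a fitted -0.10 ± 0.06 (adjusted p = 0.364, limma). Its normalised log2 signal was 15.09, 15.00, 14.93 and 15.16 in APPswe/PS1dE9 cultures and 15.15, 15.13, 15.02 and 15.28 in WT cultures. All 4 arrays were below 0, while the levels of the genotypes overlapped across arrays. The other kept probes of Rpl13 lay on both sides of 0. They gave 0.05, -0.01, -0.20 and -0.08 (fitted -0.06), and 0.14, 0.08, -0.26 and -0.39 (fitted -0.11). Rpl34 had log2 ratios of -0.19, -0.24, -0.18 and 0.22, a fitted -0.10, with 3 arrays below 0 and replicate 4 above. Rpl35, which sits at the exit of the peptide tunnel, had log2 ratios of -0.34, -0.32, -0.04 and 0.30, also a fitted -0.10, with its arrays spread over both sides of 0. Rpl5 and Rpl11, which as free proteins hold MDM2 in check when ribosome assembly fails, had fitted ratios of -0.01 and -0.05.

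Genes with a known role in disease or development, chosen for that role after their values were seen, lay in the same range. Mutations of Rps24, Rps26, Rps10 and Rpl35a are found in patients with Diamond-Blackfan anaemia, a failure of red cell precursors. Their fitted log2 ratios were -0.03, 0.00, -0.02 and -0.02. Rps24 had log2 ratios of -0.28, -0.40, 0.22 and 0.36, and Rps26 of -0.21, -0.03, 0.11 and 0.14, so both turned with the dyes. Rpl38, whose loss in mice alters the translation of Hox mRNAs, had -0.15, -0.31, 0.21 and 0.21 and a fitted -0.01. Rpl24, mutated in the mouse strain Belly spot and tail, had -0.25, -0.29, 0.35 and 0.26 and a fitted 0.02. Rpsa, a small subunit protein that was first described as a laminin receptor, had -0.16, -0.15, 0.05 and 0.12 and a fitted -0.04, on cultures plated on laminin.

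The P stalk is the arm of the large subunit that recruits translation factors. Rplp0, its base and a widely used reference gene in quantitative PCR, had log2 ratios of -0.14, -0.12, 0.19 and 0.22 and a fitted 0.04. Rplp2 had the same turn, with -0.15, -0.05, 0.30 and 0.19 and a fitted 0.07. Rplp1, which pairs with Rplp2 in the stalk, turned the other way, with 0.20, 0.11, -0.23 and -0.03 and a fitted 0.01. The 3 stalk genes thus lay at 0.01 to 0.07 in the fit, and each had both signs among its arrays. Other genes used as references gave fitted log2 ratios of 0.04 for Rpl13a, with 0.06, 0.00, 0.04 and 0.08 on the 4 arrays, of 0.01 for Rpl32 and of -0.07 for Rps18. These examples were chosen for this role after their values were seen.

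Ribosomal protein genes that are made as fusions with ubiquitin or a ubiquitin-like protein gave the same picture. Rps27a, which yields a small subunit protein and ubiquitin, had log2 ratios of -0.07, -0.16, 0.01 and 0.15 and a fitted -0.02. Fau, which yields the small subunit protein S30, is named outside the Rpl and Rps scheme. Its fitted log2 ratio was -0.02, and it did not pass the test.

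Paralogs can replace a standard protein in a fraction of ribosomes or act outside them. The 7 that were measured had a median fitted log2 ratio of 0.02 and a range of -0.08 to 0.23, and none passed the test. Rps27l, a paralog of Rps27 whose gene is a target of p53, was the highest of all 84 genes. Its normalised log2 signal was 13.50, 13.55, 13.11 and 13.36 in APPswe/PS1dE9 cultures (mean 13.38 ± 0.20, SD, n = 4), against 13.30, 13.11, 13.15 and 13.04 in WT cultures (mean 13.15 ± 0.11, SD, n = 4). It was higher in the APPswe/PS1dE9 culture on replicates 1, 2 and 4 and not on replicate 3, and the genotypes overlapped. The log2 ratios were 0.20, 0.43, -0.04 and 0.32, a fitted 0.23 ± 0.09, or 1.17-fold (95% interval 1.01 to 1.35-fold), with an adjusted p of 0.16 (limma). Its log2 ratio was 0.29 without replicate 1 (adjusted p = 0.0956, limma) and 0.14 without replicate 4 (adjusted p = 0.42, limma). It was 0.38 on replicates 2 and 4 alone and 0.05 with median centring in place of loess.

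Standard Rps27 had a fitted log2 ratio of -0.03. The ratio of Rps27l minus that of Rps27 was 0.17, 0.65, -0.03 and 0.22 on the 4 arrays, a mean of 0.25 ± 0.29 (SD). Replicate 3 was below 0 and the other arrays above. Rpl22l1, the paralog of Rpl22, had log2 ratios of 0.23, 0.22, -0.18 and 0.16 and a fitted 0.11 ± 0.08 (adjusted p = 0.437, limma). Set against Rpl22, its ratio was higher by 0.14 ± 0.17 (SD, n = 4 arrays), with 3 arrays above 0. Rpl7l1 minus Rpl7 averaged 0.00 ± 0.34 and Rpl36al minus Rpl36a averaged -0.03 ± 0.20, each with arrays on both sides of 0. These differences had no test.

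Of the retrocopies, Rps23rg1 bears on this disease model. It arose in the mouse from Rps23, is not a ribosomal protein, and in mice has been reported to lower amyloid peptide and tau phosphorylation. Its log2 ratios were -0.04, -0.04, 0.38 and -0.22, and the fitted 0.02 ± 0.10 had the widest standard error of the 84 genes. The arrays lay on both sides of 0, and the 95% interval ran from -0.24 to 0.27. Rpl32l and Rpl37rt, copies of Rpl32 and Rpl37, had fitted ratios of 0.00 and 0.03. Probes to such copies, and probes to standard members with processed pseudogenes, may also catch RNA of their near-identical relatives, so values of single copies are uncertain.

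Rps19bp1 meets the naming rule but encodes a protein that binds Rps19 and the deacetylase SIRT1. It had the lowest fitted ratio of the 84 genes. Its normalised log2 signal was 11.11, 11.06, 11.08 and 11.14 in APPswe/PS1dE9 cultures and 11.20, 11.16, 11.28 and 11.23 in WT cultures. Every APPswe/PS1dE9 value lay below every WT value, which made it the 1 gene of 84 (1.19%) whose genotypes did not overlap over the 4 arrays, against 12.5% of 20518 features. The log2 ratios were -0.09, -0.09, -0.20 and -0.09, a fitted -0.12 ± 0.06 (adjusted p = 0.283, limma), or 0.92-fold (95% interval 0.83 to 1.02-fold). Rps19 itself, which is mutated in many patients with Diamond-Blackfan anaemia, had a fitted -0.01.

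In ribosomal protein genes, ratios turned with the dye orientation more often than they kept 1 sign. The sign was the same on all 4 arrays in 5 of the 84 genes (5.95%), against 28.8% of the 20518 features with a value on every array. The 5 were Rpl10a and Rpl21 above 0 and Rpl13, Rps19bp1 and Rps25 below 0. These signs are those of the chosen probes, and the other kept probes of Rpl13 and Rpl21 each lay on both sides of 0. By its chosen probe, Rps25 had no array further from 0 than -0.04. Its other kept probe gave -0.08, -0.35, -0.40 and -0.15, a fitted -0.24 ± 0.08 (adjusted p = 0.123, limma, over kept probes). In 40 genes (47.6%) the sign turned with the dye orientation on all 4 arrays, against 18.6% of features. Cy5 was above Cy3 in 33 of these and below it in 7. Over all 84 genes the dye coefficient, log2 Cy5 over Cy3, ran from -0.18 to 0.50. Its unadjusted p was under 0.05 in 21 genes (25%) and in 15.1% of features, and it passed after adjustment in 0 features (limma).

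Rps14 had the largest dye coefficient, and Rpl23, a protein of the subunit interface that can also bind MDM2, had log2 ratios of -0.38, -0.32, 0.42 and 0.44. In Rpl23 the arrays of each orientation agreed within 0.06 and the orientations were opposite. Across the 84 genes, Spearman's rho between arrays was 0.65 for replicates 1 and 2 and 0.56 for replicates 3 and 4, which share an orientation. Between arrays of opposite orientation it was -0.67 to -0.41. These are descriptions across genes that share the arrays, their labelling and their brightness, and the genes are not independent replicates. The 2 orientations also hold different cultures, so by the ratios of 1 probe a gene, dye and culture cannot be told apart.

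**Figure D3:**
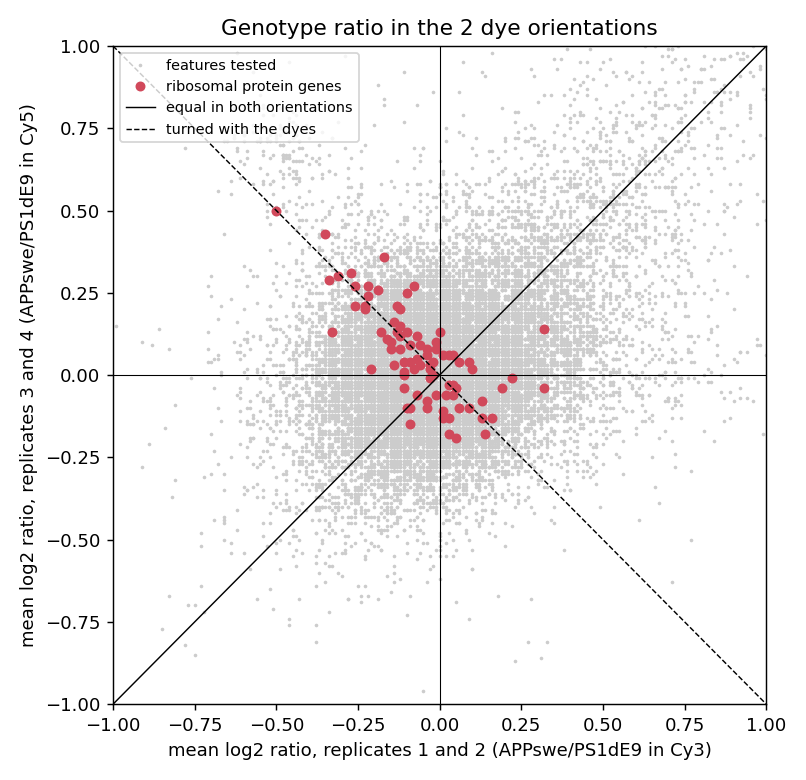
Mean log2 ratio of APPswe/PS1dE9 over WT on replicates 1 and 2 (x axis, APPswe/PS1dE9 in Cy3) against that on replicates 3 and 4 (y axis, APPswe/PS1dE9 in Cy5), for 84 ribosomal protein genes (red) and all features within the axes (grey). The red points spread along the dashed line, where a ratio turns with the dyes, and Rps14 at -0.50 and 0.50 lies at its end.

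Several probes of a gene gave a view of the same RNA with other sequences. Of the 84 genes, 51 had more than 1 kept probe, and their fitted genotype ratios differed by a median of 0.05 between probes. Their dye coefficients differed more, by a median of 0.11 and by up to 0.55 in Rpl23. In 8 of the 51 genes, among them Rpl8, Rpl23, Rpl24, Rpl29, Rplp0, Rps16 and Rpsa, 1 probe had a dye coefficient of 0.1 or more and another of -0.1 or less. For Rplp0, whose chosen probe gave -0.14, -0.12, 0.19 and 0.22, another probe gave 0.18, 0.16, -0.07 and 0.00 on the same 4 arrays. The fitted genotype ratios of these 2 probes were 0.04 and 0.07.

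Among all 168 kept probes of the family, fitted ratios ran from -0.28 to 0.23 and 1 probe was called. It belonged to Rpl30, a large subunit protein, with log2 ratios of -0.32, -0.30, -0.30 and -0.19, a fitted -0.28 ± 0.06 and an adjusted p of 0.047 (limma, over kept probes). The chosen, brighter probe of Rpl30 gave -0.05, -0.04, 0.03 and 0.09, a fitted 0.01, and the remaining probe a fitted -0.01. The probes of this gene thus disagreed, and the range of 0.29 was the largest of any of the 51 genes. Fainter probes of Rps15a, Rpl14 and Rpl15 were also below 0 on all 4 arrays, at a fitted -0.21, -0.23 and -0.16, and not called. The chosen probes of these genes were at -0.07, 0.03 and 0.00. In Rps6 a fainter probe was the higher, at 0.13 against 0.07.

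Of the measured genes, 4 are X-linked, and they are given apart because of the sex-linked transcripts. Rps4x, a small subunit protein, had log2 ratios of 0.13, 0.13, -0.12 and -0.03. Rpl39 had 0.18, 0.08, -0.27 and 0.01, and Rpl36a had 0.13, -0.07, -0.33 and 0.06. In Rpl36a and Rpl39 the highest array was replicate 1 and the lowest replicate 3, the arrays whose cultures differed in the sex-linked transcripts. This order was not particular to X-linked genes. Autosomal genes of the family had it too, among them Rps18, Rps21, Rps23 and Rplp1. Rpl10, a late-joining large subunit protein, had -0.33, -0.19, 0.29 and 0.24, with its lowest array on replicate 1. The part of sex in these values was not tested. On replicates 2 and 4 alone the median of the 84 genes was 0.01, as was that of all features, and 0 genes passed in either direction.

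The median of the family kept within 0.02 of 0 under 14 of 15 other processings, and moved to -0.20 with median centring in place of loess, where that of all features was -0.07. Under that centring 83 of the 84 genes lay below 0, 21 had an unadjusted p under 0.05, and 0 passed, with a lowest adjusted p of 0.0654 for Rpl35 (limma). Loess removes a trend of the ratio with brightness, and these genes lie at the bright end. With the scanner software's own dye normalization, the median was -0.02 against -0.06 over all features. The 15 settings are not independent checks. All but median centring in place of loess, the processed signals and the deposited table start from ratios after loess. The deposited table matches the processed signals, and scaling of the average brightness between arrays leaves the ratios unchanged.

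**Figure D4:**
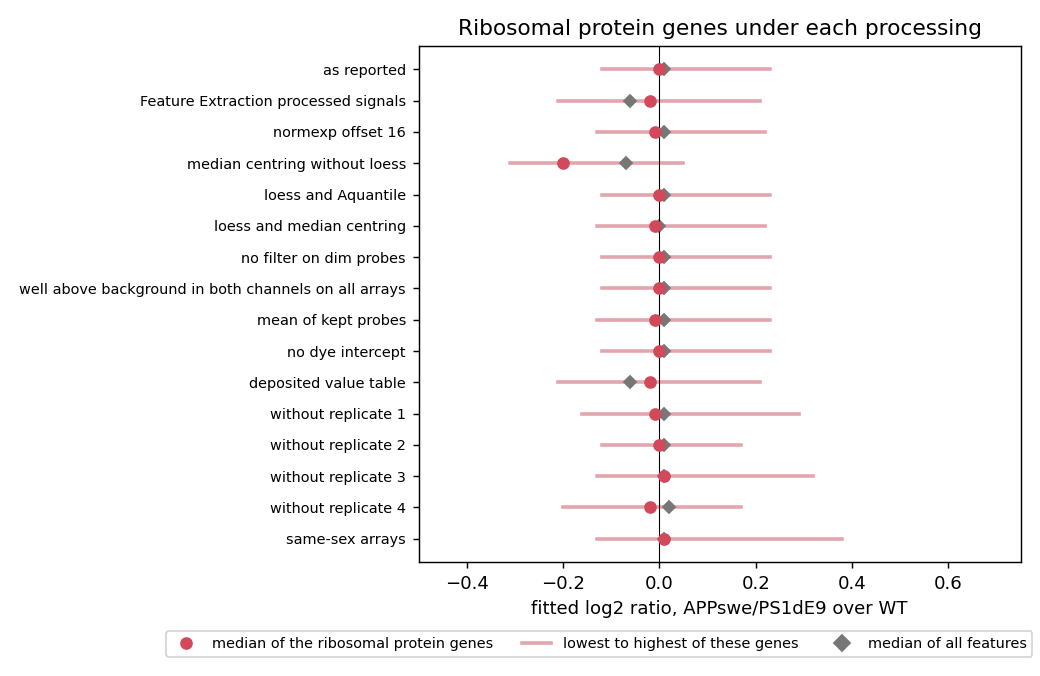
Fitted log2 ratio of APPswe/PS1dE9 over WT (x axis) under each processing (rows). Red points are medians of the 84 ribosomal protein genes, red bars their lowest to highest gene and grey diamonds the median of all features. The red point lies within 0.02 of 0 except with median centring without loess, at -0.20. Most rows start from ratios after loess and are not independent.

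Few other genes of translation, listed by symbol, passed the test. Of 20 genes with known TOP tracts outside the ribosome, 0 were higher and 1 lower, with a median fitted log2 ratio of 0.00. The lower gene was Hnrnpa1, an RNA-binding protein of splicing, with log2 ratios of -0.41, -0.21, -0.35 and -0.47 and a fitted -0.36 ± 0.07 (adjusted p = 0.0245, limma). All its arrays were below 0. The elongation factors Eef1a1 and Eef2 stood at 0.06 and 0.10, and Rack1, a scaffold on the small subunit, at 0.01. An unadjusted p under 0.05 (limma) was found in 3 of the 20, against 25.6% of all features. Beside Hnrnpa1 these were Ybx1, at -0.23, and Eif4b, at 0.17, and neither passed after adjustment.

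Of 77 mitochondrial ribosomal protein genes, which serve a separate ribosome, 2 were higher and 0 lower, with a median of 0.00. Mrps6 had log2 ratios of 0.26, 0.43, 0.21 and 0.42 and a fitted 0.33 ± 0.07 (adjusted p = 0.0376, limma). Mrpl48 had 0.19, 0.23, 0.29 and 0.33 and a fitted 0.26 ± 0.06 (adjusted p = 0.0451, limma). Both were above 0 on all 4 arrays. The calls of Hnrnpa1, Mrps6 and Mrpl48 were lost on replicates 2 and 4 alone, with log2 ratios of -0.34, 0.43 and 0.28, and with the processed signals, with -0.37, 0.32 and 0.26. With median centring in place of loess, Mrps6 and Mrpl48 were at 0.15 and 0.11 and not called, and Hnrnpa1 was at -0.52 and called. Leaving out 1 array ended the call of Hnrnpa1 without replicate 3 or 4 (-0.39 and -0.33), that of Mrps6 without replicate 2, 3 or 4 (0.29, 0.38 and 0.28), and that of Mrpl48 without any of the 4 (0.25 to 0.27).

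Ribosome assembly (32 genes, median -0.04), translation initiation (23 of 24 measured, median -0.03) and mTOR and LARP1 control (16 of 18 measured, median -0.03) had 0 genes higher and 0 lower. At an unadjusted p under 0.05, these lists held 3, 3 and 4 genes, against 25.6% of all features. Their fitted log2 ratios reached further from 0 than those of the ribosomal protein genes, from -0.32 to 0.14 in assembly, from -0.26 to 0.08 in initiation and from -0.25 to 0.31 in mTOR and LARP1 control. Mtor and Larp1 themselves had fitted log2 ratios of 0.03 and 0.00, and Larp1 had -0.32, -0.03, 0.42 and -0.08 on the arrays. The ends of that list were Mycn at -0.25 (adjusted p = 0.0519, limma) and Eif4ebp1 at 0.31 (adjusted p = 0.0566, limma). Each kept its sign on all 4 arrays. When probes had to be well above background in both channels on all arrays, 1 gene of that list was called higher and 1 lower.

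Markers of other cell types differed between the genotypes. All 7 measured of 8 microglia and macrophage markers were higher in APPswe/PS1dE9 cultures. Aif1 (2.22), Fcer1g (2.23) and Csf1r (0.95) were well above background in both genotypes on all 4 arrays. Cx3cr1 was so in WT cultures on 2 arrays and Tyrobp, C1qa and Trem2 on 1, so these 4 passed the filter through the APPswe/PS1dE9 channel, and their ratios, 1.60 to 2.31, rest on WT signals mostly near background. Of 6 astrocyte markers, 4 were higher, Gfap (0.69), Aqp4 (0.73), Slc1a3 (0.43) and Slc1a2 (0.46). Of 6 neuronal markers, 1 was lower, Dcx (-0.54), which marks young neurons. Progenitor genes were split, with Vim (0.97) and Nes (0.55) higher and Hes5 (-0.63) lower. Of the remaining lists, Flt1 (endothelium) was higher, with no WT array well above background and so no size given. Lum (fibroblasts) was lower, at -0.62, and was well above background on 1 array in APPswe/PS1dE9 cultures and on 4 in WT cultures. None of 6 oligodendrocyte lineage genes, 4 proliferation genes and 1 measured of 4 red blood cell genes passed. In bulk RNA, fewer cells of a type and less RNA per cell cannot be told apart, and the part of cell makeup in the ribosomal protein ratios was not tested.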

How the data were processed

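The members and the gene lists were chosen with earlier results of these data known, and 3 retrocopies (Rpl32l, Rpl37rt, Rps23rg1) were classed after the files were read. Per the file headers, arrays of 1 slide were read with Feature Extraction 11.0.1.1, with mm9 annotation. The authors deposited median intensity values of spots and local background, not normalized, and processed intensity values, which per the file headers had background subtracted and dyes normalized. The log10 ratio of Cy5 over Cy3 that the authors deposited beside them was not used. In a deposited value table of 29350 spots, the values matched log2 ratios of the processed signals, uncentred, APPswe/PS1dE9 over WT (slopes -1.00, -1.00, 1.00 and 1.00 on log2 Cy5/Cy3; column medians -0.0797, -0.155, -0.0373 and -0.0378).

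Background was corrected by normexp (offset 50) and ratios by loess within arrays, control and outlier spots at weight 0, in limma 3.58.1 (R 4.3.3). Both kinds of spot were removed afterwards, and replicate spots averaged per probe. Probes well above background in 1 genotype's channel on at least 3 of 4 arrays were kept (26898 of 55681), and the brightest stood for its gene, giving 20583 features, 13669 of them named. By accession, 27509 probes matched a RefSeq symbol (GRCm38.p6). lmFit and eBayes fitted genotype with a dye term, on 2 residual degrees of freedom and 4.14 from the prior. Tests were two-sided, Benjamini-Hochberg adjusted over all features, threshold 0.05. Scripts were tested on simulated data. Named were the 8 highest and 8 lowest members, the measured paralogs with their partners, the P stalk genes, Rps19bp1, members whose probes disagreed, and genes of other lists past the threshold; 3 genes are not reported here, and other examples were chosen after their values were seen. The 15 alternatives changed background correction, normalization, filter, probe choice or dye term, used the deposited table, or left out arrays. The number of arrays limits the precision.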

Additional observations from a re-analysis of the deposited data

Results flagged for a closer look

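In 3 of the 84 ribosomal protein genes, 1 array lay far from the other 3 by Dixon's criterion, which by chance marks about 1 in 20 groups. These were Rpl22l1 on replicate 3, with a log2 ratio of -0.18 where the others were at 0.16 to 0.23, Rpl34 on replicate 4, at 0.22 where the others were at -0.24 to -0.18, and Rps19bp1 on replicate 3, at -0.20 where the others were at -0.09. The median of the 7 measured paralogs was also set apart on replicate 4, at 0.13, where the other arrays were at -0.04 to -0.03.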

How the results depend on the processing

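Under all 15 alternatives, 0 ribosomal protein genes were higher and 0 lower, and none of the 390 recomputed ratios of the 26 named members passed the test (a ratio whose interval holds 0 was given no direction). Median centring without loess moved medians to -0.20 (all members), -0.22 (small subunit), -0.20 (large subunit), -0.18 (P stalk), -0.07 (paralogs) and -0.16 (the 168 genes of the other translation lists together). It also left 5 genes with an interval within 1.25-fold, where other alternatives except the same-sex arrays left 70 to 83. Among the 168 other genes, 2 higher calls became 0 with the processed signals, an offset of 16, median centring, no filter, the deposited table and the same-sex arrays, 1 with median centring after loess and with no dye intercept, and 3 with the strict filter (well above background in both channels on all arrays). The 1 lower call became 2, 9, 2, 0, 4, 3, 2 and 0 with the processed signals, median centring, median centring after loess, no filter, the strict filter, the mean of kept probes, the deposited table and the same-sex arrays. Leaving out 1 array gave 0 to 2 higher calls (0 without replicate 2, 3 or 4) and 0 to 2 lower calls (0 without replicate 3 or 4, 2 without replicate 2). The causes were not tested.

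Over all features, calls of 1705 higher and 472 lower became 723 and 241 with the processed signals, 725 and 238 with the deposited table, 960 and 103 with no filter (37018 features), 1310 and 1309 with median centring, 1367 and 259 with no dye intercept, 523 and 29 without replicate 3, 384 and 9 without replicate 4, and 474 and 11 on the same-sex arrays. The log2 ratio of an array pairs the 2 cultures hybridised to it, so every fit was paired by array. This leaves 1 group of arrays with no further replicate number to add as a block.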
